A study of Mus musculus with 60 samples.

Results

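The genes described here encode the subunits of oxidative phosphorylation, together with the complex I assembly factors that share the Nduf prefix. They were taken from the protein-coding rows of 3 gene count tables by symbol: names beginning with Nduf, Uqcr, Cox4 to Cox8 or Atp5, the names Sdha to Sdhd, and the mitochondrially encoded mt-Nd, mt-Co, mt-Cytb and mt-Atp genes. The rule found 107 members among 22046 protein-coding rows in each of both NMuMG tables and 109 among 21936 in the 4T1 table. Of these, 13 in every table are encoded by mitochondrial DNA, and the other 94, 94 and 96 by nuclear DNA. A filter on low counts left 99, 99 and 100 members for testing, always with all 13 mitochondrial ones.

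The series holds 60 RNA-seq libraries from mouse cells in 20 groups of 3, labelled as biological replicates. NMuMG is an epithelial line from normal mouse mammary gland, and 4T1 is a carcinoma line of the mouse mammary gland, classed in the labels as triple negative breast cancer. In the first experiment, NMuMG cells carrying sgPBRM1 (labelled PBRM1 KO) were set against cells carrying sgCT (labelled Control), each at 0, 24, 48 and 72 h of TGFβ1. In the second, NMuMG cells carrying shATF3 (labelled as an ATF3 knockdown) were set against cells with pLKO, an empty short-hairpin vector, at the same times. In the third, 4T1 cells carrying shPBRM1 (labelled PBRM1 KD) were set against 4T1 cells with pLKO, untreated (titled 0h, written 0 d here) and after 4 d of TGFβ1. The labels also describe 4T1 cultures kept 4 d with or without TGFβ1, so the sources used here leave unclear whether the untreated 4T1 cells were harvested at the start or after 4 d. TGFβ1, a cytokine that drives epithelial cells towards a mesenchymal state, was given at 5 ng/ml, in media with serum, glutamine and sodium pyruvate, and for NMuMG also insulin. PBRM1 is a subunit of the PBAF chromatin remodelling complex, and ATF3 is a stress-induced transcription factor. The sources used here do not say whether a line was a clone or a pool. A p-value between genotypes measures against the spread between libraries of a group, not that between guides, hairpins or clones. No untreated NMuMG culture of 24 to 72 h was among the libraries, so in those cells treatment and time in culture cannot be told apart, and in 4T1 they cannot either if 0 d was the start of the culture.

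Oxidative phosphorylation couples the oxidation of fuels to ATP synthesis in the inner mitochondrial membrane. Complex I takes electrons from NADH and complex II from succinate, complex III passes them to cytochrome c, complex IV passes them on to oxygen, and complex V, the ATP synthase, uses the proton gradient that complexes I, III and IV build. Complex II is encoded wholly in the nucleus, whereas the other complexes join nuclear subunits with a core made inside the mitochondrion from mitochondrial DNA, whose genes are transcribed as long precursors from both strands by a polymerase of their own. Nuclear respiratory factors, ETS factors and YY1 are known regulators of the nuclear genes.

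Library totals ran from 16.2 to 21.9, from 15.6 to 22.7 and from 22 to 31.1 M counts (M for mega) in the 3 experiments, and the spread between libraries of a group, as edgeR's common biological coefficient of variation, was 2.88%, 7.59% and 2.95%. The shATF3 experiment was therefore the least precise. Pbrm1 RNA stood at 28.8, 26.3 and 29.8 CPM (counts scaled to a common library size, the unit of levels below) in the 3 shPBRM1 4T1 libraries at 0 d, against 239, 234 and 233 CPM in pLKO. In NMuMG cells at 0 h it was 99.1, 93.2 and 99 CPM with sgPBRM1, against 115, 116 and 115 CPM with sgCT, and an edit need not lower the RNA. Atf3 went against its label at 0 h, with 11.2, 13.9 and 11.8 CPM in the libraries labelled ATF3 knockdown, against 9.12, 10.8 and 9.96 CPM in pLKO. At 24 h it was 18.9, 17.4 and 17.1 CPM in those libraries, against 29.3, 26.3 and 25.0 CPM in pLKO. At 72 h the groups overlapped, with 9.62, 4.60 and 6.10 CPM in those libraries, against 9.60, 9.65 and 8.58 CPM in pLKO. The epithelial markers Krt8, Krt18 and Cdh1 were abundant in both lines, while Epcam averaged 0.206 and 0.164 CPM in the NMuMG tables and 298 CPM in 4T1. The summed leukocyte markers reached at most 107 CPM, nearly all of it Cd14, with Ptprc and Tyrobp at or near 0, and endothelial, muscle and adipocyte markers summed to at most 1.22 CPM in any library. These are bulk samples, in which fewer cells of a kind and less RNA per cell cannot be told apart.

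The promoters of 4 members whose levels are central to the results are shown first: Cox8a and Sdhd, among the members that fell most in NMuMG cells with TGFβ1, Ndufaf4, the member that fell most in 4T1 cells, and Ndufa1, which was lower with PBRM1 loss in both lines. Each sequence is from RefSeq, build GRCm38.p6, and runs from 250 bases before to 50 bases after the gene's start, 5′ to 3′ on the gene's strand. Capitals mark matches to the NRF1 motif (GCGC, then any base, then TGCGC) or the ETS motif CCGGAAG on either strand. Cox8a lies at chr19:7217567-7217866 on the minus strand, Sdhd at chr9:50603800-50604099 on the minus strand, Ndufaf4 at chr4:24897833-24898132 on the plus strand and Ndufa1 at chrX:37191189-37191488 on the minus strand.
Cox8a: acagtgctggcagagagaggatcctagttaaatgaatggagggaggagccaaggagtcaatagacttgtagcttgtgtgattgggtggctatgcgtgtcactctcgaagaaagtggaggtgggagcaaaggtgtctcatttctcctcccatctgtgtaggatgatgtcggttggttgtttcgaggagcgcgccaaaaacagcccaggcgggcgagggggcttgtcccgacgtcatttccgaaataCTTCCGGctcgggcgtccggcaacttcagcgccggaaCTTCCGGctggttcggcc
Sdhd: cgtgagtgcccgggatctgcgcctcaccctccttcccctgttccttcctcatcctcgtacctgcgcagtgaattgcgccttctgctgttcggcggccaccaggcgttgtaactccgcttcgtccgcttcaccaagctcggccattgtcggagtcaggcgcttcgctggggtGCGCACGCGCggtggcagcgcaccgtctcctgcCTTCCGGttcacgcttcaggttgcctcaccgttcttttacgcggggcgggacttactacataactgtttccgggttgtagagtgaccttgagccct
Ndufaf4: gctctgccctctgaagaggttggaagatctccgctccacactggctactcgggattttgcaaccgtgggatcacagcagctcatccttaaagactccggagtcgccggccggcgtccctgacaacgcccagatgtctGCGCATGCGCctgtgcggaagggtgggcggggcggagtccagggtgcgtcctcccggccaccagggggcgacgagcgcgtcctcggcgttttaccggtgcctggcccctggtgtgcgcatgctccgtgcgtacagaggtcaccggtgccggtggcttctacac
Ndufa1: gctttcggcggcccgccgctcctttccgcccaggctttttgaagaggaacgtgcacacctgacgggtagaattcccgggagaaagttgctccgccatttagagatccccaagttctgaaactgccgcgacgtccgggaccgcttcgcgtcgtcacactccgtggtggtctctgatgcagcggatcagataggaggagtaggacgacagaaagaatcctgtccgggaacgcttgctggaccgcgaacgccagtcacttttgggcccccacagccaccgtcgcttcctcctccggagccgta
Cox8a held 2 ETS matches, Sdhd 1 NRF1 and 1 ETS match, Ndufaf4 1 NRF1 match and Ndufa1 none of the motifs searched. Of 97 nuclear member symbols, 78 had a promoter in the table. NRF1 matched 19 of these 78 (24.36%), against 7.17% of all 17492 protein-coding genes with such promoters, the members included. A gene counted if any of its promoters matched, so genes with several had more sequence to match. ETS matched 19 (24.36%), against 12.95% of all, and the YY1 motif AAGATGGC matched 11 (14.1%), against 3.57%. The E-box CACGTG matched 6 (7.69%), against 8.91% of all. These are matches of letters on both strands, not binding sites, and overlaps between motifs were allowed.

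For the mitochondrially encoded members the counts depend on where nearly identical copies sit in the nuclear genome. Of 13583 annotated pseudogenes searched at 99% identity or more, 5 were full copies of a mitochondrial member: of mt-Co2, mt-Co3, mt-Atp6, mt-Nd3 and mt-Nd4l, all on chromosome 1. The starts of mt-Nd3 (chrMT:9459-9806) and of its copy Gm28438 (chr1:24612775-24613119) show how little sets them apart, with the base that differs in capitals.
mt-Nd3: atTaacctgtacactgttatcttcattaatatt
Gm28438: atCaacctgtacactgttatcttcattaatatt
That substitution, T3C (the mt-Nd3 base first, counted from 1 at the transcript's 5′ end), was the 1 mismatch in 345 aligned bases. In the first experiment mt-Nd3 held 1.41 to 3.36 CPM over the libraries, while Gm28438 held 34.5 to 65.7 CPM. Likewise mt-Co2 held 32.4 to 48.3 CPM and its copy Gm28661 37.5 to 56.1 CPM. By contrast mt-Co1, whose copy Gm29216 spans 31.3% of its transcript, held 8581 to 12703 CPM against 19.9 to 47.9 CPM in the copy. mt-Nd4 also has a partial copy, Gm28439, identical over 63.6% of its transcript. It held 1073 to 1395 CPM against 10.1 to 15.8 CPM in that copy. The values of the 5 members with a full copy are therefore uncertain, and so is that of mt-Atp8, which overlaps mt-Atp6. The other 7 members, mt-Co1, mt-Cytb, mt-Nd1, mt-Nd2, mt-Nd4, mt-Nd5 and mt-Nd6, carry almost all of the mitochondrial counts, and the sums below rest on them. Counts of calls and medians below cover all 13 mitochondrial members, the uncertain ones included. The same search found such a stretch for 13 nuclear members, with 1 full copy, that of Atp5g2. Among the others it spanned 88.9% of an annotated transcript of Atp5h, 71.0% of Ndufa12, 69.0% of Atp5g1 and 40.2% of Ndufb4. The part of these copies in the nuclear values was not tested.

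Per gene length as listed with the counts, the mitochondrial messages led the set in untreated control cells. For several nuclear members that listed length was far longer than an annotated transcript, which lowers their values here. The order of the nuclear members and their gap to the mitochondrial ones depend on it. On the scale of CPM per kilobase, mt-Co1, the catalytic subunit of complex IV, stood at 6313 in sgCT NMuMG cells, ahead of the complex I core subunit mt-Nd1 at 3420 and mt-Cytb, cytochrome b of complex III, at 2939. On this scale the highest nuclear members were Cox8a, a small membrane subunit of complex IV, at 806 and Atp5b, the catalytic beta subunit of complex V, at 336. In the pLKO NMuMG cells mt-Co1 stood at 4553, mt-Nd1 at 2895 and mt-Cytb at 2585 CPM per kilobase. In pLKO 4T1 cells mt-Cytb at 3921, mt-Nd1 at 3908 and mt-Co1 at 3837 CPM per kilobase differed by less than the spread between libraries. There Atp5b, at 426, stood above Cox8a, at 371 CPM per kilobase, but the listed length of Cox8a differed between the NMuMG and 4T1 tables. mt-Nd6, the 1 subunit read from the other strand, differed most in level between tables: 403 ± 15 CPM in sgCT and 772 ± 17 CPM in pLKO NMuMG cells, but 28.0 ± 7.5 CPM in pLKO 4T1 cells (SD, n = 3 each). The 4T1 libraries came from a stranded kit, the sources used here do not say whether counting used the strand, and the part of either in that gap was not tested.

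**Figure D1:**
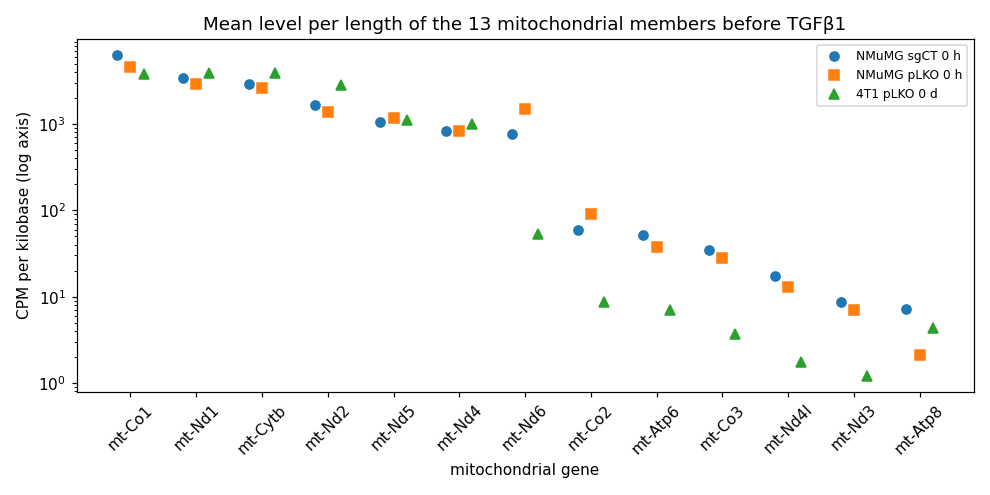
Level of the 13 mitochondrially encoded members before TGFβ1 in CPM per kilobase of transcript (log axis) for the 3 control lines, each symbol the mean of 3 libraries. mt-Co1, mt-Nd1 and mt-Cytb lead in each line, the 5 members with a full nuclear copy sit far below, and mt-Nd6 is high in NMuMG but not in 4T1.

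With TGFβ1, many nuclear subunits had lower CPM in control NMuMG cells, and the mitochondrial sum rose relative to the nuclear one. At 72 h in sgCT cells, 45 of 86 tested nuclear members were lower and 9 higher (edgeR quasi-likelihood test, Benjamini-Hochberg adjusted p at most 0.05 over all 14345 tested genes), with a median log2 fold change of -0.16. A log2 fold change below 0 means a lower level at 72 h, and its standard error (SE) comes from the fit. Among all tested genes 34.4% were called lower and 34.9% higher, with a median near 0. Of the 13 mitochondrial members, 5 were higher and 3 lower, with a median of 0.07. The nuclear members summed to 8461, 8325 and 8616 CPM at 72 h, against 9511, 9738 and 9782 CPM at 0 h, a drop of 12.5% with no overlap between the groups. The ratio of the mitochondrial to the nuclear sum, which needs no scaling between libraries, was 2.67, 2.65 and 2.63 at 72 h, against 2.25, 2.25 and 2.22 at 0 h. The drop in nuclear CPM was present by 24 h, when 55 nuclear members were lower and 3 higher (29.5% and 29.9% of all genes), and at 48 h, with 54 lower and 3 higher (32.1% and 33.4% of all genes). In the same contrast Cdh1, the epithelial cadherin, changed by -1.12 on the log2 scale, and its part in these values was not tested.

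The drop was uneven over the complexes. At 72 h all 4 genes of complex II were lower in sgCT cells, with a summed CPM 21.0% below that at 0 h, and 12 of 16 complex V genes were lower, with a sum 15.1% below. The Sdhc call, the smallest of complex II at -0.11, was lost without replicate 2 of sgCT at 0 h (-0.093, adjusted p = 0.066) and without replicate 3 at 72 h (-0.10, adjusted p = 0.051). Complex IV had 7 of 13 lower and 1 higher. Complex I had 16 of 36 lower and 3 higher and a sum only 6.67% below, and complex III had 2 of 8 lower and 3 higher.

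Cox8a had 263, 258 and 271 CPM at 72 h, against 429, 432 and 457 CPM at 0 h in sgCT cells. Its log2 fold change was -0.74 ± 0.032 (SE; adjusted p = 1.4e-29), and the groups did not overlap. Members named for the largest changes, here and below, were chosen to have groups that do not overlap. For them the lack of overlap is no further support. The decline was stepwise, with means of 439, 331, 292 and 264 CPM at 0, 24, 48 and 72 h. Sdhd, a membrane anchor of complex II, had 69.3, 65.4 and 68.3 CPM at 72 h, against 109, 111 and 111 CPM at 0 h, a log2 fold change of -0.71 ± 0.041 (adjusted p = 4.1e-23). Most of that fall was in place at 24 h, where Sdhd averaged 75.4 CPM. Sdha, the flavoprotein that oxidizes succinate, fell by 0.33 on the log2 scale, with 241, 229 and 230 CPM at 72 h, against 287, 303 and 290 CPM at 0 h. Sdhb, the iron-sulfur subunit, fell by 0.25 on the log2 scale. Uqcrfs1, the Rieske iron-sulfur protein of complex III, had 119, 107 and 114 CPM at 72 h, against 157, 158 and 155 CPM at 0 h (log2 fold change -0.47, adjusted p = 2.8e-17). Atp5b had 1176, 1180 and 1182 CPM at 72 h, against 1421, 1428 and 1423 CPM at 0 h, so that the most abundant nuclear message separated the groups completely (log2 fold change -0.27, adjusted p = 7.9e-16). Also lower were Ndufa5, an accessory subunit of complex I (log2 fold change -0.53), Ndufaf7, a methyltransferase needed for complex I assembly (-0.51), and Atp5o, a stalk subunit of complex V (-0.50).

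Few nuclear members were higher. Ndufv3, a small subunit of the flavoprotein part of complex I, had 74.4, 77 and 72.3 CPM at 72 h, against 59.5, 64.2 and 61.1 CPM at 0 h (log2 fold change 0.28 ± 0.049, adjusted p = 1.2e-06). It was not higher throughout: the group means at 0, 24, 48 and 72 h were 61.6, 45.8, 68.6 and 74.6 CPM. Cox7a2l, a factor that joins complexes III and IV into supercomplexes, had 145, 148 and 155 CPM at 72 h, against 129, 127 and 133 CPM at 0 h (log2 fold change 0.20, adjusted p = 1e-06). Ndufa13 and the small complex V subunit Atp5mpl rose by 0.20 and 0.17 on the log2 scale, but with library totals alone by 0.077 and 0.046, without a call.

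The mitochondrial messages did not move as a block. mt-Co1 had 11332, 11126 and 11241 CPM at 72 h, against 9847, 9771 and 9641 CPM at 0 h in sgCT cells (log2 fold change 0.20 ± 0.024, adjusted p = 2.2e-11), and mt-Nd5 rose by 0.15, or by 0.030 with no call when library totals alone were the scale. In the opposite direction, mt-Nd2 had 1236, 1239 and 1361 CPM at 72 h, against 1667, 1751 and 1719 CPM at 0 h (log2 fold change -0.42, adjusted p = 3.4e-20). mt-Nd1 behaved like mt-Nd2, with 2574, 2439 and 2570 CPM at 72 h, against 3112, 3345 and 3361 CPM at 0 h (log2 fold change -0.37). Groups did not overlap for any of these 4 genes. mt-Cytb, mt-Nd4 and mt-Nd6 were called higher by 0.07, 0.06 and 0.10 on the log2 scale, but with library totals alone as the scale they changed sign, to -0.046, -0.062 and -0.022. That scale moves the median of all tested genes by -0.12 in this contrast, and it gave 3 members higher and 69 lower, against 14 higher and 48 lower with the trimmed-mean factors used here. The calls of mt-Cytb, mt-Nd4 and mt-Nd6 were also lost without replicate 1 of sgCT at 0 h, with changes of 0.059, 0.042 and 0.064, and that of mt-Nd4 when any 1 of 4 other libraries was left out.

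**Figure D2:**
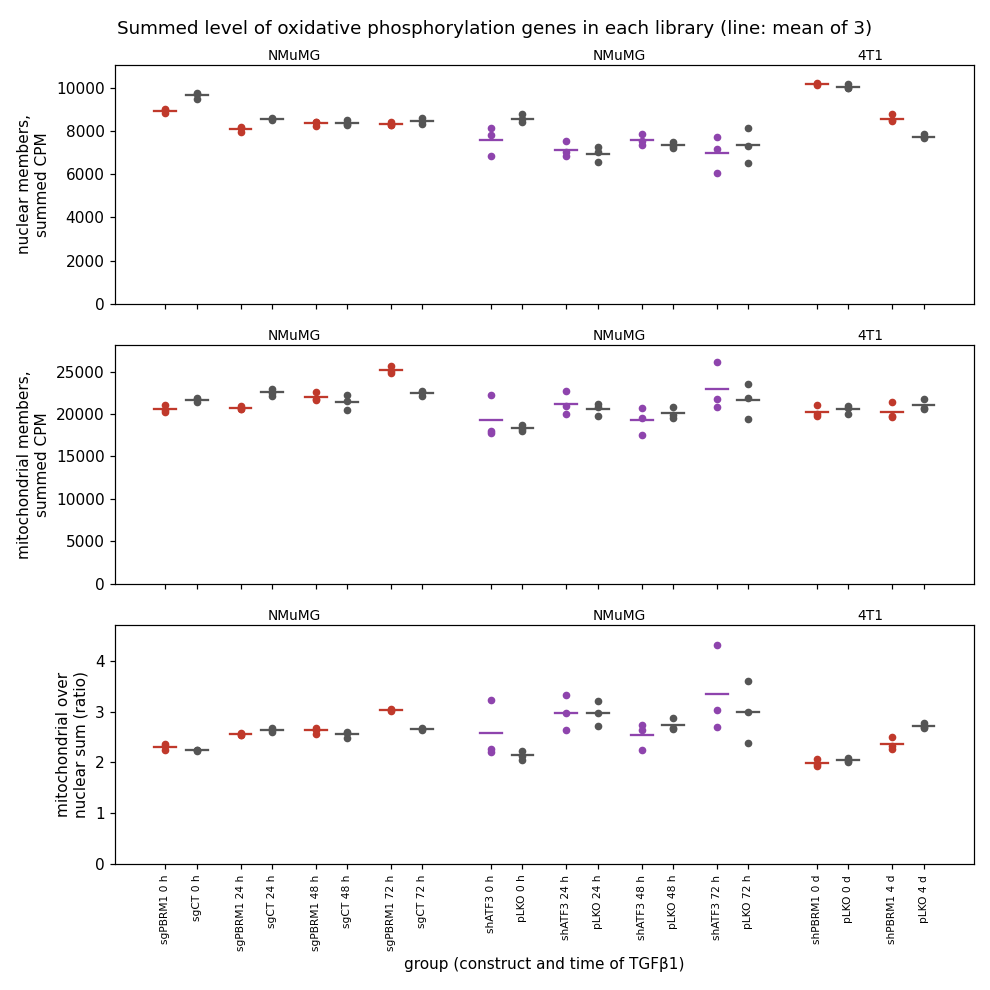
Summed CPM of the nuclear members, summed CPM of the mitochondrial members and their ratio in each of the 60 libraries; points are libraries, lines the mean of 3, with the altered genotype left of its control at each time. The ratio is higher after TGFβ1 in each control line, and the shATF3 experiment has the widest spread.

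The pLKO NMuMG cells of the second experiment showed the same division with less precision. At 72 h, 36 of 86 nuclear members were lower and 2 higher, with a median of -0.23 (29.1% of all genes lower, 28.9% higher), and 5 of the 13 mitochondrial members were higher, with a median of 0.08. The 43 members called became 24 without replicate 3 of pLKO at 72 h. With library totals alone, which move the median of all genes by -0.18, 1 member was higher and 60 lower, against 7 and 36 here. At 24 h 53 nuclear members were lower and 1 higher (26.5% and 26.9% of all genes), and at 48 h 32 and 1 (26.7% and 27.2%). The nuclear sum was 7323, 8156 and 6535 CPM at 72 h, against 8422, 8548 and 8792 CPM at 0 h. Sdhd had 76.4, 88.0 and 66.0 CPM at 72 h, against 109, 107 and 116 CPM at 0 h (log2 fold change -0.52 ± 0.088, adjusted p = 1e-05). Cox8a had 240, 296 and 224 CPM at 72 h, against 341, 354 and 381 CPM at 0 h (log2 fold change -0.50 ± 0.13, adjusted p = 0.0022). Both genes separated the groups, though the 72 h libraries ranged widely. All 4 complex II genes were lower again, Sdhc by 0.25 (0.17 and not called without replicate 3 of pLKO at 72 h, 0.23 and adjusted p = 0.051 without replicate 2 at 0 h). mt-Nd4 had 1547, 1421 and 1573 CPM at 72 h, against 1135, 1136 and 1154 CPM at 0 h (log2 fold change 0.41 ± 0.075, adjusted p = 3.6e-05). mt-Cytb and mt-Co1 were each called higher by 0.31 on the log2 scale, and with library totals alone their changes were 0.16 and 0.15 and no longer called; without replicate 3 of pLKO at 72 h mt-Co1 stood at 0.21 (adjusted p = 0.059). Among lower members named by the largest change, Ndufa12 had a log2 fold change of -0.94, but -0.48 without replicate 3 of pLKO at 0 h, the 1 library with 38.4 CPM, and its call was lost without any 1 of the 72 h libraries too. mt-Co3 was called higher by 0.65 and stood at -0.016 without replicate 3 of pLKO at 72 h. In this contrast 2009 other protein-coding genes with a listed length below 1000 bases also had a summed CPM 17.1% below that at 0 h. This was a larger fall in proportion than that of the nuclear sum, and their part in the latter was not tested. Most tested nuclear members were themselves listed as longer than 1000 bases. The sum of these other short genes overlapped between 72 h and 0 h in sgCT cells.

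In 4T1 control cells the drop with TGFβ1 was broader. After 4 d, 74 of 87 tested nuclear members were lower and 5 higher in pLKO cells, with a median log2 fold change of -0.40, among all tested genes of which 35.4% were lower and 39.1% higher. Of the mitochondrial members 3 were higher and 4 lower, with a median near 0. The nuclear sum was 7676, 7720 and 7855 CPM at 4 d, against 10014, 10018 and 10182 CPM at 0 d. The mitochondrial sums of both groups overlapped, and the ratio was 2.7, 2.67 and 2.77 at 4 d, against 2.09, 2 and 2.03 at 0 d. All 17 tested complex V genes were lower, with a sum 28.6% below, as were 12 of 13 complex IV genes, 6 of 8 complex III genes and 31 of 37 complex I genes. The complex I assembly factors had a sum 34.2% below. Other genes with a listed length below 1000 bases, 1865 in this table, had a summed CPM 13.6% below, and their part was not tested.

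Ndufaf4, a complex I assembly factor, had 9.54, 8.96 and 10.3 CPM at 4 d, against 33.0, 32.7 and 36.3 CPM at 0 d in pLKO 4T1 cells (log2 fold change -1.82 ± 0.072, adjusted p = 7.9e-22). No other member changed as much in that contrast. Uqcrq, a small subunit of complex III, had 40.5, 40.1 and 45.2 CPM at 4 d, against 100, 101 and 100 CPM at 0 d (log2 fold change -1.26 ± 0.043). Atp5g1, which encodes the c subunit of the ATP synthase ring, had 36.2, 35.6 and 35.6 CPM at 4 d, against 82.2, 88.5 and 85.4 CPM at 0 d (log2 fold change -1.25 ± 0.042). The libraries of both groups lay far apart for each of these genes, relative to their spread, though a lack of overlap was a condition for naming them. Ndufaf2 (log2 fold change -0.92), Ndufa11 (-0.76) and Ndufa5 (-0.74), all of complex I or its assembly, completed the members with the largest falls. Sdhb had 66.1, 65.4 and 69.5 CPM at 4 d, against 101, 107 and 105 CPM at 0 d (log2 fold change -0.64). Atp5b fell to 1202, 1189 and 1251 CPM at 4 d, against 1792, 1799 and 1826 CPM at 0 d (log2 fold change -0.57).

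Among the 4T1 exceptions were Ndufv3, Cox7a2l and mt-Co1, which were also higher in sgCT NMuMG cells. Ndufv3 had 48.7, 50.8 and 48.9 CPM at 4 d, against 27.9, 29.6 and 29.0 CPM at 0 d (log2 fold change 0.78 ± 0.05, adjusted p = 7.2e-16). Cox7a2l had 172, 180 and 181 CPM at 4 d, against 105, 102 and 106 CPM at 0 d (log2 fold change 0.77 ± 0.032, adjusted p = 2.4e-21). Both stood clear of their untreated values, which the naming rule required. Ndufa6, an accessory subunit of complex I, rose by 0.42 on the log2 scale. mt-Co1 had 8063, 8198 and 8559 CPM at 4 d, against 6071, 5738 and 5975 CPM at 0 d (log2 fold change 0.48 ± 0.029, adjusted p = 9.6e-17). mt-Nd1 and mt-Nd2 again moved the other way, by -0.36 and -0.23, and mt-Nd5, higher in NMuMG cells, was lower here, with 1614, 1539 and 1509 CPM at 4 d, against 2105, 1978 and 2064 CPM at 0 d.

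Of 97 members tested in both the first and the third experiment, 43 were lower with TGFβ1 in both control lines, which is 91.5% of the 47 lower in sgCT NMuMG cells and 57.3% of the 75 lower in pLKO 4T1 cells. Among all 12331 genes tested in both, 56.2% of those lower in sgCT were lower in pLKO 4T1 cells, where 37.7% of these genes and 77.3% of the 97 members were lower. A further 5 members were higher in both, 38.5% of the 13 higher in sgCT cells, against 58.8% over all genes. In opposite directions were 6: Atp5mpl, Uqcrc1, Uqcrq, mt-Atp6, mt-Cytb and mt-Nd5. Of these, the sgCT calls of Atp5mpl, mt-Cytb and mt-Nd5 did not hold with library totals alone, and mt-Atp6 has a full nuclear copy. Between sgCT and pLKO NMuMG cells at 72 h, 28 of 99 members were lower in both, 58.3% of the 48 lower in sgCT and 77.8% of the 36 lower in pLKO. Over all genes these shares were 73.1% and 82.5%.

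**Figure D3:**
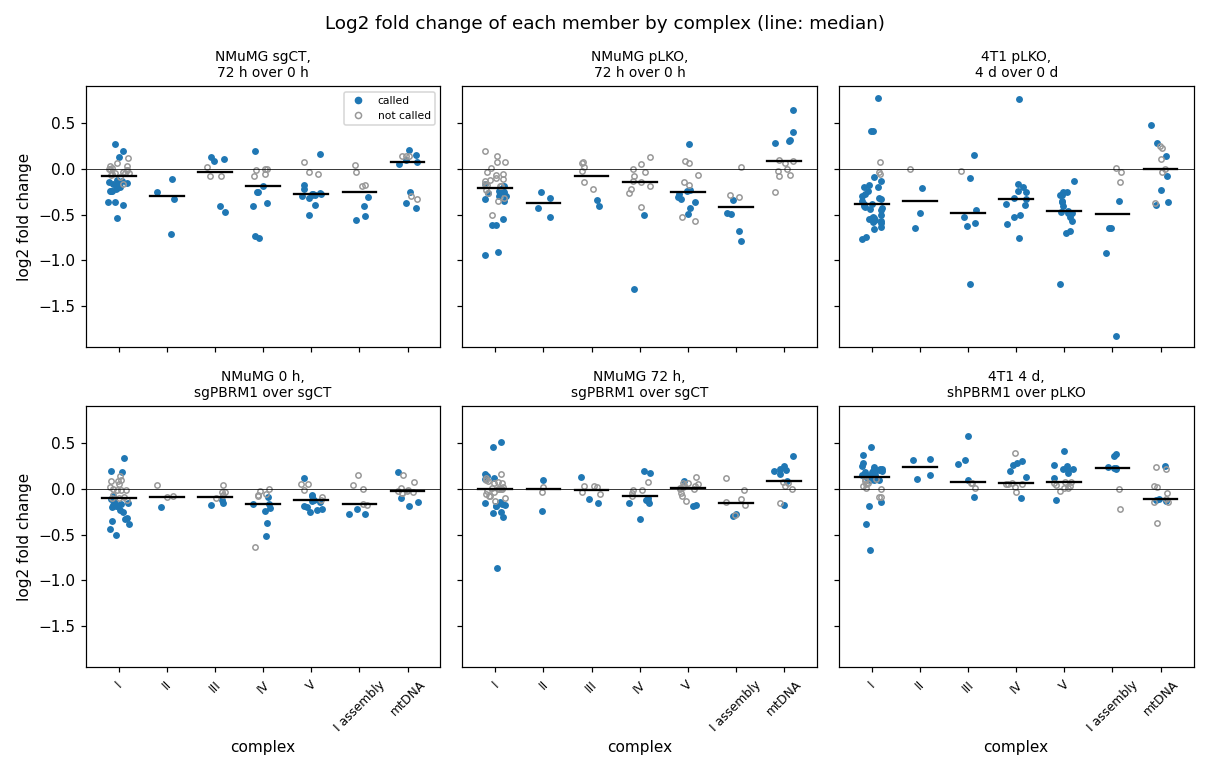
Log2 fold change of each tested member by complex in 6 comparisons (points filled where called, open where not; line, median of the class). With TGFβ1 the medians of complexes I to V lie below 0 in each control line, and that of the mitochondrial members (mtDNA) lies near or above 0. With PBRM1 loss the medians of the nuclear classes lie below 0 in untreated NMuMG and above 0 in 4T1 at 4 d.

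Untreated NMuMG cells with sgPBRM1 had many nuclear members lower by small amounts. At 0 h, 42 of 86 were lower in sgPBRM1 cells and 4 higher, with a median log2 fold change of -0.11, among all tested genes of which 23.2% were lower and 21.9% higher. The nuclear sum was 8834, 8964 and 9043 CPM in sgPBRM1 cells, against 9511, 9738 and 9782 CPM in sgCT, and did not overlap. Complex I had 18 of 36 genes lower and 3 higher, complex IV 7 of 13 lower and complex V 10 of 16 lower, whereas complex II had 1 of 4. The sum of complex IV was 13.7% below that of sgCT cells.

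Cox8a had 307, 302 and 313 CPM in sgPBRM1 cells at 0 h, against 429, 432 and 457 CPM in sgCT (log2 fold change -0.52 ± 0.031, adjusted p = 1.4e-21). Ndufa1, an X-linked accessory subunit needed to build the membrane arm of complex I, had 19.8, 16.8 and 20.9 CPM in sgPBRM1 cells, against 26.2, 28.2 and 27.4 CPM in sgCT (log2 fold change -0.51 ± 0.081). Cox5b, a matrix-side subunit of complex IV, had 95.9, 93.1 and 96.0 CPM in sgPBRM1 cells, against 120, 127 and 122 CPM in sgCT (log2 fold change -0.38 ± 0.04). None of these groups overlapped, which the rule for naming members by the largest changes required. Ndufs8, an iron-sulfur subunit of complex I, and Ndufb3, an accessory one, fell by 0.38 and 0.43 on the log2 scale. Of the mitochondrial members only mt-Cytb was higher, with 3793, 3941 and 3742 CPM in sgPBRM1 cells, against 3304, 3375 and 3409 CPM in sgCT (log2 fold change 0.19 ± 0.024, adjusted p = 3.3e-09). mt-Co1 was lower, with 8589, 9108 and 8778 CPM in sgPBRM1 cells, against 9847, 9771 and 9641 CPM in sgCT (log2 fold change -0.14), as were mt-Nd1 and mt-Nd2.

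After 72 h of TGFβ1 the nuclear sums of both genotypes overlapped, and the mitochondrial ones did not. In sgPBRM1 cells 23 nuclear members were lower and 11 higher than in sgCT at 72 h, with a median of -0.02 (25.6% of all genes lower, near the share of the nuclear members, and 24.3% higher, above it), and 7 of 13 mitochondrial members were higher and 1 lower, with a median of 0.09. With library totals alone the split of all members was 9 higher and 29 lower, against 18 and 24. At 24 h the counts were 39 lower and 7 higher among nuclear members (23.7% and 23.1% of all genes) and at 48 h 25 lower and 12 higher (25.6% and 24.4%). The mitochondrial sum at 72 h was 25624, 24852 and 25049 CPM in sgPBRM1 cells, against 22612, 22080 and 22657 CPM in sgCT. The ratio to the nuclear sum was 3.04, 3.01 and 3.03 in sgPBRM1 cells, against 2.67, 2.65 and 2.63 in sgCT.

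mt-Cytb had 4578, 4494 and 4602 CPM in sgPBRM1 cells at 72 h, against 3566, 3471 and 3581 CPM in sgCT (log2 fold change 0.36 ± 0.024, adjusted p = 9.2e-20). mt-Co1 had 12703, 12574 and 12344 CPM in sgPBRM1 cells, against 11332, 11126 and 11241 CPM in sgCT (log2 fold change 0.16 ± 0.024, adjusted p = 6e-08), the reverse of its order at 0 h. mt-Nd4, mt-Nd5 and mt-Nd6 were higher by 0.22, 0.20 and 0.26, and mt-Nd1 was lower by 0.17 on the log2 scale. Ndufv3 had 104, 105 and 100 CPM in sgPBRM1 cells, against 74.4, 77 and 72.3 CPM in sgCT (log2 fold change 0.46 ± 0.046). Ndufb4, an accessory complex I subunit, was higher by 0.51, with 20.0, 19.7 and 21.4 CPM in sgPBRM1 cells, against 15.8, 14.5 and 12.6 CPM in sgCT. Ndufa1 had the largest fall among the members, with 13.9, 14.7 and 11.4 CPM in sgPBRM1 cells, against 23.2, 24.5 and 25.3 CPM in sgCT (log2 fold change -0.87 ± 0.09, adjusted p = 1.9e-12). Its genotype difference was -0.51, -0.74, -0.65 and -0.87 on the log2 scale at 0, 24, 48 and 72 h. Ndufa4, now counted as a subunit of complex IV, was lower by 0.33 and Sdhb by 0.24.

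Within sgPBRM1 cells, fewer nuclear members were lower as time with TGFβ1 went on, as was also so in sgCT cells from 48 to 72 h. Compared with 0 h, 46 were lower and 4 higher in sgPBRM1 cells at 24 h (29.7% and 30% of all genes). The counts were 39 and 13 at 48 h (33.5% and 34.4%), and 33 and 15 at 72 h (34.9% and 36.2%). With library totals alone, which move the median of all genes by -0.19 at 72 h, 71 of all members were lower and 7 higher, against 35 and 21. The ratio of mitochondrial to nuclear sums was 3.04, 3.01 and 3.03 at 72 h, against 2.32, 2.36 and 2.24 at 0 h in these cells. The difference between the TGFβ1 changes of both genotypes was tested directly as an interaction. At 24 h it was called for 2 nuclear members above 0 and 3 below (8.5% and 9.88% of all genes). At 72 h it was above 0 for 24 nuclear members and below 0 for 3 (11.6% and 15.8% of all genes), and above 0 for 6 mitochondrial members. At 48 h the nuclear counts were 27 above and 1 below (10.8% and 13.5% of all genes). With library totals alone the split over all members was 19 above and 7 below at 72 h, against 30 and 3. mt-Co1 changed by 0.51 in sgPBRM1 and by 0.20 in sgCT cells over 72 h, a difference of 0.30 ± 0.033 on the log2 scale (adjusted p = 4e-11). mt-Nd5, mt-Nd4, mt-Nd6 and mt-Cytb had differences of 0.24, 0.24, 0.28 and 0.18. Cox8a fell by 0.37 in sgPBRM1 cells and by 0.74 in sgCT cells, a difference of 0.36 ± 0.045 (adjusted p = 1.4e-09). It started lower with sgPBRM1, and at 72 h had 246, 233 and 233 CPM in sgPBRM1 cells, against 263, 258 and 271 CPM in sgCT. Ndufv3 rose by 0.64 in sgPBRM1 and by 0.28 in sgCT cells, a difference of 0.36 ± 0.067 (adjusted p = 1.5e-05). Ndufa1 went the other way, with a difference of -0.36 (adjusted p = 0.018), which became -0.30 (adjusted p = 0.083) without replicate 3 of sgPBRM1 at 0 h and -0.28 (adjusted p = 0.098) without replicate 3 of sgPBRM1 at 72 h.

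**Figure D4:**
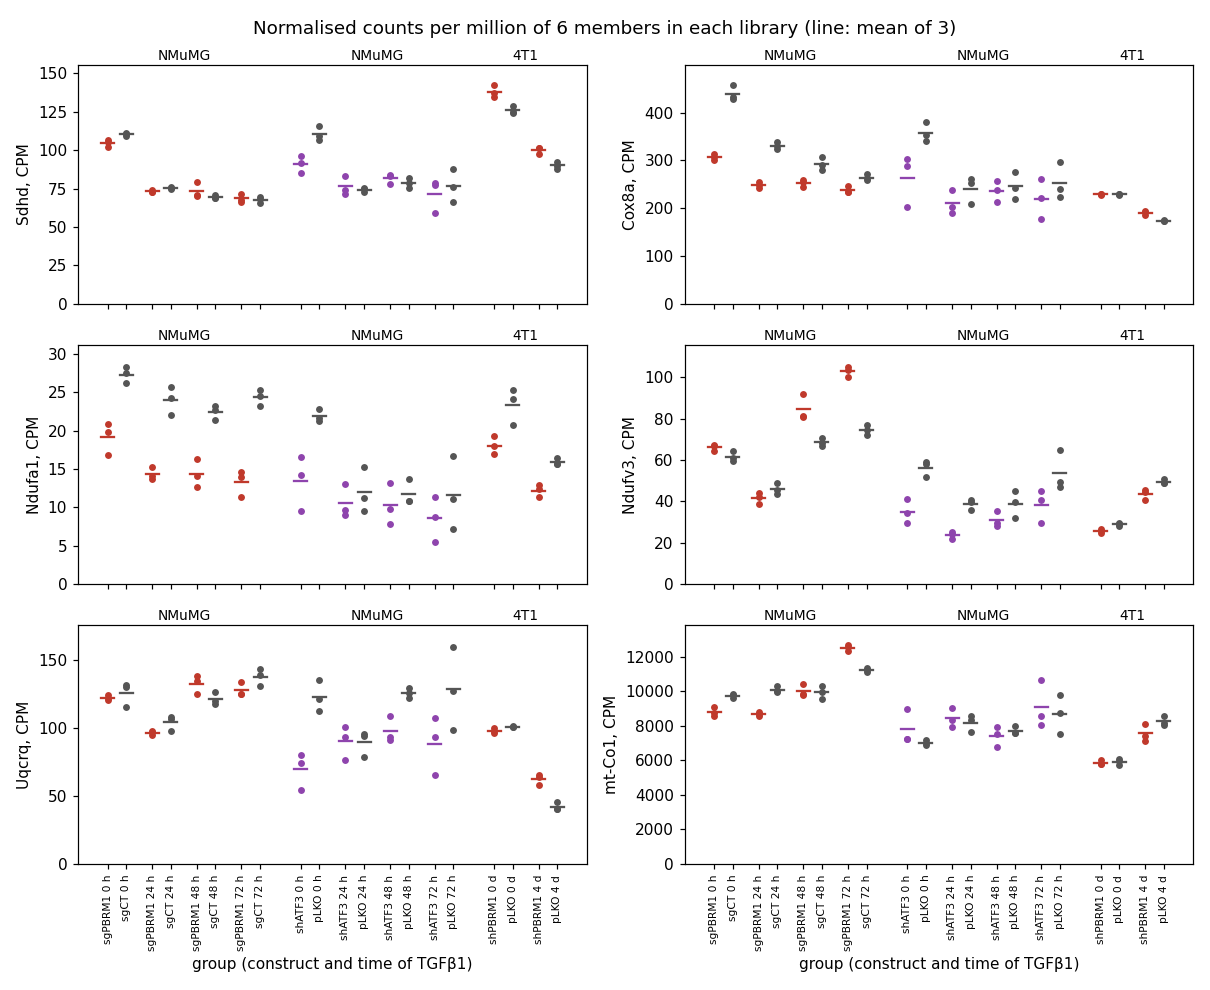
CPM of Sdhd, Cox8a, Ndufa1, Ndufv3, Uqcrq and mt-Co1 in each library, the altered genotype left of its control at each time. Sdhd and Cox8a are lower after TGFβ1 in the control cells, Ndufa1 is lower with PBRM1 loss in both lines, and the genotypes of 4T1 stand far apart in Uqcrq after TGFβ1.

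In 4T1 cells with PBRM1 knockdown the called nuclear members were mostly higher, most clearly after TGFβ1. At 0 d, 27 of 87 nuclear members were higher in shPBRM1 cells and 10 lower, with a median of 0.03 (27.5% of all genes higher, 23.5% lower), so that at 0 d the share of higher members was near that of all genes. At 4 d, 50 were higher and 7 lower, with a median of 0.13 (27.8% and 27.3% of all genes). Within shPBRM1 cells 71 nuclear members were lower and 4 higher with TGFβ1 (34.7% and 35.2% of all genes). The nuclear sum at 4 d was 8778, 8455 and 8527 CPM in shPBRM1 cells, against 7676, 7720 and 7855 CPM in pLKO. At 0 d it was 10235, 10156 and 10179 CPM in shPBRM1 cells, against 10014, 10018 and 10182 CPM in pLKO, and overlapped. Other genes with a listed length below 1000 bases moved the other way, with sums 14.5% below pLKO at 0 d and 11.8% below at 4 d. Of the mitochondrial members 1 was higher and 3 lower at 4 d, and the ratio to the nuclear sum was 2.26, 2.32 and 2.51 in shPBRM1 cells, against 2.7, 2.67 and 2.77 in pLKO. With library totals alone the split of all members at 0 d was 45 higher and 5 lower, against 28 and 12 with the factors used here.

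Complex II moved as a whole. Sdha had 201, 204 and 198 CPM in shPBRM1 4T1 cells at 0 d, against 158, 165 and 165 CPM in pLKO (log2 fold change 0.30 ± 0.029, adjusted p = 7.2e-11). At 4 d it had 176, 179 and 176 CPM in shPBRM1 cells, against 141, 139 and 142 CPM in pLKO (0.33). Sdhb, Sdhc and Sdhd were each higher by 0.13 at 0 d and by 0.32, 0.11 and 0.15 at 4 d on the log2 scale.

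Among the members with the largest differences at 4 d, Uqcrq had 65.2, 63.8 and 57.9 CPM in shPBRM1 cells, against 40.5, 40.1 and 45.2 CPM in pLKO (log2 fold change 0.58 ± 0.045, adjusted p = 4.4e-13). Atp5g1 had 47.6, 50.6 and 44.9 CPM in shPBRM1 cells, against 36.2, 35.6 and 35.6 CPM in pLKO (0.42). Both had fallen with TGFβ1, and Uqcrq did so by 0.65 in shPBRM1 and by 1.26 in pLKO cells on the log2 scale. Ndufa11 (0.46), Ndufaf1 (0.39), Ndufb9 (0.37) and Ndufaf5 (0.36), of complex I and its assembly, were also higher in shPBRM1 cells. Atp5b was higher by 0.25, with 1475, 1421 and 1422 CPM in shPBRM1 cells, against 1202, 1189 and 1251 CPM in pLKO. The main exception was Ndufc2, an accessory subunit of complex I, with 25.5, 24.9 and 27.4 CPM in shPBRM1 cells at 0 d, against 47.2, 50 and 48.4 CPM in pLKO (log2 fold change -0.90 ± 0.05, adjusted p = 1.1e-16). At 4 d it was 28.5, 26.5 and 25.6 CPM in shPBRM1 cells, against 42.6, 42.8 and 43.1 CPM in pLKO (-0.67). Ndufa1 was lower at 0 d by 0.37 and at 4 d by 0.38, with 12.9, 11.3 and 12.3 CPM in shPBRM1 cells, against 16.4, 15.6 and 15.7 CPM in pLKO at 4 d. Ndufa7, an accessory complex I subunit, was among the members with the largest rise at 0 d, with 100, 106 and 105 CPM in shPBRM1 cells, against 78.2, 79.2 and 78.8 CPM in pLKO (0.40).

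In the 4T1 interaction 26 nuclear members lay above 0 and 4 below (13.2% and 15.1% of all genes). Uqcrq led with a difference of 0.61 ± 0.059 (adjusted p = 5.6e-10), followed by Ndufa11, Uqcrc1, a core protein of complex III, Atp5b and Ndufb8 at 0.31 to 0.33. mt-Nd5 had a difference of 0.49 ± 0.062 (adjusted p = 1.6e-07), having been lower by 0.24 in shPBRM1 cells at 0 d and higher by 0.25 at 4 d. mt-Nd6 had 71.8, 67.2 and 29.0 CPM in shPBRM1 cells at 0 d, against 20.6, 27.7 and 35.6 CPM in pLKO. The groups overlapped, with 2 of the 3 shPBRM1 libraries high. The genotype difference of mt-Nd6 at 0 d, 0.98, ran from 0.74 to 1.30 with 1 library left out. Its interaction was -1.12.

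Across the lines, members called in both were more often opposite than alike in their genotype difference. Untreated, 3 members were higher with PBRM1 loss in both lines (Ndufb2, Ndufb9 and Ndufc1), 5 were lower in both (Atp5b, Cox6b1, Ndufa1, Ndufc2 and Ndufs6) and 13 were called in opposite directions, which is 26% of the 50 called in NMuMG and 33.3% of the 39 called in 4T1. The direction was thus shared by 8 of the 21 called in both (38.1%), against 57.5% of all genes called in both. At the last time 7 were higher in both (Ndufa7, Ndufb4, Ndufc1, Ndufs3, Ndufv2, Sdha and mt-Nd5), 2 lower in both (Atp5j2 and Ndufa1) and 20 opposite, so that 9 of 29 shared the direction (31%), against 44.3% of all genes called in both. Ndufa1 was thus lower in both lines at both times. For the interactions 11 members were above 0 in both lines: Atp5b, Atp5g1, Atp5g3, Atp5l, Cox5b, Cox7c, Cox8a, Ndufa10, Ndufa11, Ndufs8 and mt-Nd5. Called in opposite directions were 8, so that 57.9% shared the direction, against 42.2% of all genes called in both. These shares have no test. The lines differ in the kind of PBRM1 loss, the days of TGFβ1 and the library kit, so the cause of a difference between them cannot be told apart.

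**Figure D5:**
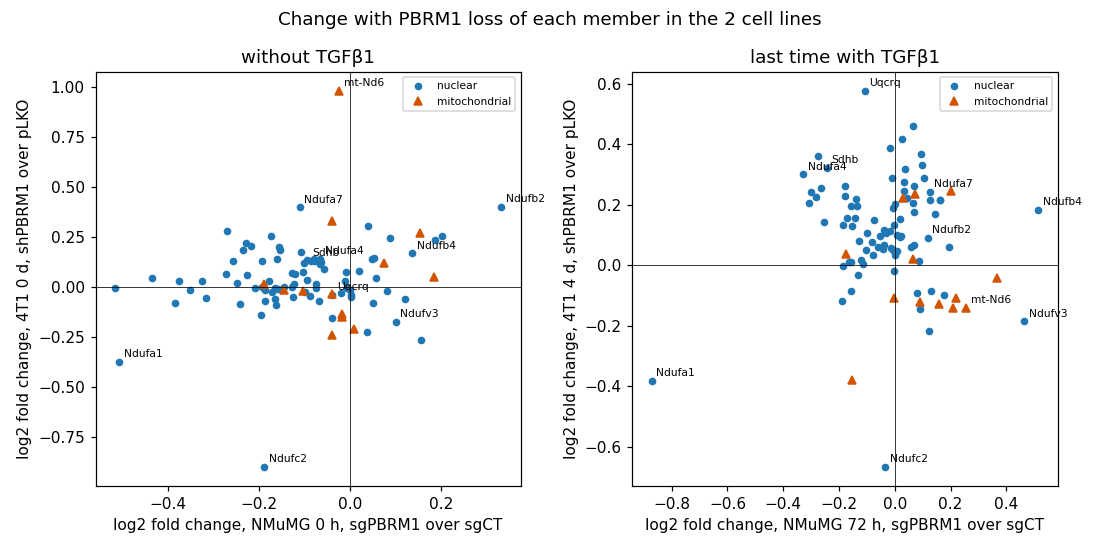
Log2 fold change with PBRM1 loss in NMuMG (sgPBRM1 over sgCT, horizontal) and 4T1 (shPBRM1 over pLKO, vertical) for each member, untreated and at the last TGFβ1 time; circles are nuclear and triangles mitochondrial members. Points spread over all 4 quadrants, and Ndufa1 lies in the lower left in both panels.

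In the libraries labelled ATF3 knockdown, 23 of 86 nuclear members were lower and 1 higher at 0 h than in pLKO, with a median of -0.16 (18.4% of all genes lower, 18.6% higher), although Atf3 RNA was not lower there. The nuclear sum was 6872, 7818 and 8150 CPM in the shATF3 libraries, against 8422, 8548 and 8792 CPM in pLKO. The other short genes summed 14.7% lower, a larger fall in proportion than that of the nuclear sum, and their part was not tested. Without replicate 1 of shATF3 at 0 h, the lowest library, Cox8a changed from -0.44 (adjusted p = 0.01) to -0.27 (adjusted p = 0.12) and Ndufa1 from -0.71 (adjusted p = 0.02) to -0.50 (adjusted p = 0.14). Ndufa1 also had an adjusted p of 0.058 without replicate 3 of pLKO at 0 h and of 0.050 with DESeq2, above the threshold. Over all members 27 calls became 16 without it. The calls of the next 5 genes held with any 1 library left out. Uqcrfs1 had 86.5, 94.2 and 80.7 CPM in shATF3 libraries, against 150, 146 and 142 CPM in pLKO (log2 fold change -0.74 ± 0.081, adjusted p = 2.8e-08). Uqcrq had 54.4, 80.3 and 74.2 CPM in shATF3 libraries, against 113, 121 and 135 CPM in pLKO (-0.82 ± 0.15, adjusted p = 0.00011). Atp5g3, another gene for the c subunit, had 105, 141 and 143 CPM in shATF3 libraries, against 222, 211 and 220 CPM in pLKO (-0.75 ± 0.15). Ndufv3 had 29.5, 34.2 and 41.1 CPM in shATF3 libraries, against 58.1, 51.9 and 58.9 CPM in pLKO (-0.69 ± 0.14). Against that trend Cox7a2l was higher, with 110, 123 and 135 CPM in shATF3 libraries, against 97.9, 101 and 91.7 CPM in pLKO (0.34 ± 0.07, adjusted p = 0.00032).

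At 72 h, 9 nuclear members were lower in the shATF3 libraries and 1 higher (15% and 15.6% of all genes), and the nuclear sums overlapped. The 12 members called became 3 without replicate 2 of pLKO at 72 h and 20 without replicate 3. Uqcrfs1 was still lower, with 83.4, 58.8 and 74.7 CPM in shATF3 libraries, against 108, 117 and 105 CPM in pLKO (log2 fold change -0.61 ± 0.083, adjusted p = 1.7e-06). Cox7a2l was still higher, with 149, 126 and 146 CPM in shATF3 libraries, against 109, 111 and 98.4 CPM in pLKO (0.41 ± 0.07, adjusted p = 5.3e-05). Both calls held with any 1 library left out. At 24 h 5 nuclear members were lower and 6 higher with shATF3 (16.6% and 15.2% of all genes), and at 48 h 4 and 4 (13.8% and 11.8%). Within the shATF3 libraries, TGFβ1 went with 12 nuclear members lower and 3 higher at 24 h (24.2% and 25% of all genes), 7 and 9 at 48 h (24.4% and 24.2%) and 16 and 5 at 72 h (26.6% and 27.8%), each below the share of all genes in the lower direction. The interaction was called above 0 for 8 nuclear members at 24 h, 4 at 48 h and 1 at 72 h, among 7.74%, 4.23% and 5.67% of all genes above 0 and 10.9%, 7.4% and 7.19% below. The ratio of mitochondrial to nuclear sums averaged 3.35 ± 0.85 in shATF3 and 2.99 ± 0.61 in pLKO libraries at 72 h (SD, n = 3 each), with 4.31 in replicate 2 of shATF3, and overlapped.

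Most tissue-specific isoforms were silent. Cox8c had no counts, and Cox6a2, Cox8b, Ndufa4l2, Cox4i2 and Cox6b2, the forms of muscle, lung or testis and of low oxygen, averaged at most 0.275 CPM in any group, so the general forms Cox6a1, Cox8a, Ndufa4, Cox4i1 and Cox6b1 carried the counts. Cox7a1, a heart and muscle form, was the exception in NMuMG at 2.36 ± 0.519 CPM in sgCT and 1.86 ± 0.193 CPM in pLKO cells at 0 h (SD, n = 3 each), against 0.211 CPM in pLKO 4T1 cells. Over the groups of an experiment, the highest group mean of a nuclear member was in the median 1.29, 1.36 and 1.43 times the lowest in the 3 experiments. For mitochondrial members the medians were 1.36, 1.43 and 1.28 times. The mean of the highest group was at least 2 times that of the lowest for 3, 8 and 3 nuclear members. In the first experiment these were Cox7a1 (3.03 times), Ndufv3 (2.48 times) and Ndufa1 (2.05 times). In the second, the least precise, they were Cox7a1 (5.05 times), Ndufa1 (2.56 times), Atp5k (2.53 times), Ndufv3 (2.37 times), Ndufa12 (2.21 times), Ndufaf7 (2.14 times), Uqcrfs1 (2.02 times) and Atp5g3 (2.01 times). In 4T1 they were Ndufaf4 (4.07 times), Atp5g1 (2.71 times) and Uqcrq (2.40 times). The Cox7a1 ratios rest on low levels, with lowest group means of 0.779 and 0.368 CPM.

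Other genes of the pathway were read from lists. Of 77 tested genes for mitochondrial ribosomal proteins, 54 were lower and 7 higher with 72 h of TGFβ1 in sgCT cells (median -0.29; 34.4% and 34.9% of all genes), and 71 were lower and 3 higher with 4 d in pLKO 4T1 cells (median -0.58; 35.4% and 39.1% of all genes), led by Mrpl20 at -1.42 and Mrpl12 at -1.29. With PBRM1 loss 32 were lower and 3 higher in NMuMG at 0 h (23.2% and 21.9% of all genes), and 53 higher and 3 lower in 4T1 at 4 d (27.8% and 27.3%). In pLKO 4T1 cells with TGFβ1, 17 of 20 genes of the citric acid cycle were lower and 2 higher, and 27 of 38 assembly factors outside the symbol rule were lower and 5 higher. Cycs and Cyc1, cytochrome c and the cytochrome c1 of complex III, which the rule leaves out, were at -1.79 and -1.13 there and at -0.27 and -0.47 in sgCT cells. Tfam, which packages and transcribes mitochondrial DNA, was at -0.85 in sgCT cells at 72 h. Ppargc1a, a coactivator of mitochondrial genes, was at -1.45 in sgCT and -2.56 in pLKO NMuMG cells, while its relative Ppargc1b was at 1.17 and 1.78. Of the genes known to respond to low oxygen through HIF, 8 of 11 were higher with sgPBRM1 at 0 h (Bnip3 0.97, Pdk1 0.66), against 21.9% of all genes. By contrast 12 of 12 were lower with shPBRM1 in 4T1 cells at 0 d (median -0.85, Car9 -1.39; 23.5% of all genes) and 11 of 11 with shATF3 at 0 h (median -0.83; 18.4% of all genes). These moved with the genotypes in the comparisons above, and their part in the subunit differences was not tested.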

How the data were processed

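RNA-seq gene counts of 60 libraries were analysed from 3 tables of raw read counts per gene deposited by the authors, 1 per experiment, per the file headers; no column of other samples was present. The submitters' processing notes name mm10, Trim Galore 0.6.7, HISAT2, STAR 2.7.10a, DESeq2 and edgeR, without saying which made which table, and the sources used here do not say how reads with several matches were counted. NMuMG libraries were made and sequenced by a service company, and 4T1 libraries with a stranded mRNA kit, per the labels' protocols. The labels give biological replicates and no batch.

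Each experiment was fitted apart with edgeR 4.0.16 (R 4.3.3, limma 3.58.1): filterByExpr (minimum count 10, total 15), trimmed-mean (TMM) factors, and quasi-likelihood tests with 1 coefficient per group, Benjamini-Hochberg adjusted over all genes of a comparison (14345, 14983 or 13854), at 0.05, two-sided. Of 31 comparisons, 12 are described most fully. CPM use the TMM-scaled library sizes. Sums over members and their ratio have no test; an exact permutation test of 3 against 3 libraries cannot give a p below 0.1. Ndufa4 and Cox7a2l are classed in complex IV. The fit was tested on simulated data for the untreated genotype comparison of each experiment. It found 48%, 23% and 67% of 1.25-fold changes and 88%, 69% and 89% of 2-fold changes in the 3 experiments. At most 0.056% of unchanged genes were called. Each simulation changed 100 genes by each fold among 13606 to 14549 genes and left the rest flat. In the data many more genes were called, such as 21.9% higher and 23.2% lower between untreated NMuMG genotypes of the first experiment. The adjusted threshold therefore fell elsewhere, and these shares describe the simulation, not the tests above. In that setting small changes were missed most often in the shATF3 experiment. The members and lists were chosen with earlier results of these data known. Named are the 13 mitochondrial members, the Cox and Ndufa4 isoforms, Sdha to Sdhd, and per main comparison up to 6 called members per direction with the largest change, reaching 10 CPM in the higher group, with groups that do not overlap (interactions excepted). Other members are named for counts shared between lines, for the largest spread over groups and for every interaction called in either PBRM1 experiment. The values of 1 member are not reported here.

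No table of protein sequences was used. Alternatives were DESeq2 1.42.0, its size factors in edgeR, library totals alone, scaling without mitochondrial genes, no filter, fits of only the groups compared, the replicate number as a block, and leaving out each library.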

Additional observations from a re-analysis of the deposited data

Results flagged for a closer look

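The results here were picked out because the TGFβ1 change differed between an altered genotype and its control by the interaction test (edgeR quasi-likelihood test, adjusted p at most 0.05 over all tested genes). Each value is the log2 change in the altered cells minus the log2 change in the control cells, every member called is given for both experiments, and no explanation was tested.

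In NMuMG cells at 72 h, sgPBRM1 minus sgCT, 33 members were called. The mitochondrial members above 0 were mt-Co1 (0.30), mt-Nd6 (0.28), mt-Nd5 (0.24), mt-Nd4 (0.24), mt-Nd2 (0.19) and mt-Cytb (0.18). In complex I, Ndufb3 (0.42), Ndufb4 (0.38), Ndufv3 (0.36), Ndufa11 (0.32), Ndufv2 (0.26), Ndufs8 (0.24), Ndufa7 (0.24), Ndufs1 (0.19) and Ndufa10 (0.17) lay above 0, and Ndufa1 (-0.36) below. Sdhc (0.16) of complex II and Uqcr10 (0.21) and Uqcrh (0.20) of complex III lay above 0. In complex IV, Cox8a (0.36), Cox7a2l (0.23), Cox5b (0.22), Cox6c (0.20), Cox7a2 (0.19) and Cox7c (0.14) lay above 0 and Ndufa4 (-0.26) below. In complex V, Atp5l (0.37), Atp5g1 (0.26), Atp5o (0.19), Atp5g3 (0.19), Atp5h (0.19) and Atp5b (0.10) lay above 0 and Atp5a1 (-0.11) below. Among the 18 of these named by the rule and refitted with 1 library left out, the calls of Sdhc, Cox7a2, Ndufb4, Ndufa1 and Atp5a1 were lost in at least 1 fit.

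In 4T1 cells at 4 d, shPBRM1 minus pLKO, 34 members were called. Uqcrq (0.61), Uqcrc1 (0.32), Uqcr11 (0.20) and Uqcrb (0.17) of complex III lay above 0 and Uqcrh (-0.20) below. Complex I and its assembly had mt-Nd5 (0.49), Ndufa11 (0.33), Ndufb8 (0.31), Ndufaf1 (0.25), Ndufs8 (0.24), Ndufc2 (0.23), Ndufa5 (0.22), Ndufa12 (0.21), Ndufa9 (0.18) and Ndufa10 (0.16) above 0, and mt-Nd6 (-1.12), Ndufa6 (-0.18), Ndufa7 (-0.16) and mt-Nd2 (-0.10) below. Complex IV had Cox7c (0.27), Cox5b (0.17), Cox6a1 (0.16), Ndufa4 (0.16), Cox6b1 (0.14) and Cox8a (0.13) above 0, and Cox7a2l (-0.19) and mt-Co1 (-0.11) below. In complex V, Atp5b (0.31), Atp5a1 (0.25), Atp5g1 (0.23), Atp5g3 (0.22), Atp5l (0.19) and Atp5pb (0.16) lay above 0, as did Sdhb (0.19) of complex II. The mt-Nd6 value had an adjusted p of 0.097 by DESeq2, and among the 18 named by the rule the calls of Ndufa6, Ndufa7, mt-Co1, mt-Nd2 and Cox6b1 were lost in at least 1 fit with a library left out.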

How the results depend on the processing

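Changes of named members kept their direction and their side of the threshold 191 times with DESeq2, 202 with DESeq2's size factors in edgeR, 183 with library totals alone, 206 with scaling free of mitochondrial genes, 195 without a filter, 200 with only the groups compared and 202 with the replicate block, and lost the call 17, 6, 22, 2, 13, 8 and 6 times. With library totals alone, 3 changes in sgCT cells at 72 h reversed: mt-Cytb to -0.046, mt-Nd4 to -0.062 and mt-Nd6 to -0.022. The median change of nuclear minus that of mitochondrial members was -0.11 between genotypes of the first experiment at 72 h and -0.07 for its interaction. With the 8 mitochondrial members that have no full copy, an alternative chosen after seeing the data, these were -0.20 and -0.15.

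The shATF3 experiment depended most on the settings. Between its genotypes at 72 h, 12 members were called, 28 without a filter and 4 with only the groups compared. For its interaction 1 was called, 3 without a filter, 0 with only the groups compared and 0 with the replicate block. By correlation of residuals, the replicate numbers did not pair the libraries in any experiment (medians 0.007, 0.001 and -0.002), and the block changed no other total of members called by more than 1.5 times.

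With each library left out in turn, members called in that experiment ran from 16 to 30 (27 with all) between genotypes at 0 h, from 3 to 20 at 72 h, from 0 to 7 for the interaction and from 24 to 55 (43 with all) for TGFβ1 in pLKO cells. The nuclear minus mitochondrial median ran from -0.36 to 0.063 between genotypes at 72 h, from -0.16 to 0.32 for the interaction and from -0.65 to -0.19 for TGFβ1 in pLKO cells. In the first experiment it ran from -0.18 to -0.11 between genotypes at 72 h and from -0.14 to -0.0089 for the interaction. The change of mt-Co3 in pLKO cells at 72 h ran from -0.016, reversed, without replicate 3 of that group to 0.99 without replicate 2. The causes were not tested. At the depth and spread of the shATF3 experiment small differences are the least well resolved.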
